A study of Mus musculus with 6 samples.

Results

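Weakly open gene ends are regions of accessible chromatin that gathered few reads and lay no more than 1 kb from a protein-coding gene's start or 3′ end. They were taken from a count matrix of 24605 regions by 2 criteria, the distance to a gene end in the mm10 RefSeq annotation and a mean below 12 CPM over all 6 libraries. CPM is the count of a region per 1000000 counts of its library over all regions. Of 9422 gene-end regions, 1023 met the CPM limit, and the other 8399 are called stronger gene ends here. The mean CPM chose these regions, so their weakness is a description and not a result.

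The series compared wild-type (WT) mouse CD8+ T cells, whose sources in the labels are lymph nodes, spleen and pancreas, after 48 hours in culture with 100 µM palmitate or in control medium. ATAC-seq, in which the Tn5 transposase cuts accessible DNA, was done on 50000 sorted cells per library, in 3 libraries for each condition. Replicates carry numbers in the labels, with no word on separate mice or cultures. The p-values therefore measure only how these libraries spread, and that spread may be technical. Counts in regions came to 2219136 to 3089230 per library. All 9 defining genes of CD8 T cells checked (Cd8a, Cd8b1, Cd3e, Cd3d, Cd3g, Cd2, Cd5, Lck and Thy1) had a gene-end region, at 17.9 to 106 CPM, and none of these was weak. No gene-end region was present at Ms4a1, Ncr1, Foxp3 or Cd4. Of 5 myeloid genes, Lyz2, Csf1r and Cd14 had none, while Itgam and Spi1 had a weak one.

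The start of an active gene is usually the most accessible part of a locus, because the nucleosome-depleted promoter stays open for the transcription machinery. Promoters rich in CpG dinucleotides tend to be open in many cell types, while CpG-poor promoters tend to be open only in the cells that use them. The 3′ end of a gene, where transcription terminates, is less often open, and an open region there may hold a distal element of its own or of a neighbouring gene.

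The median weak gene end drew 8.44 CPM, against 54.3 CPM for stronger gene ends, and the lowest 2.73 CPM. Its median width was 320 bp (146 to 1014 bp), against 584 bp. In raw reads the median count of such a region in a library was 22, with a range of 1 to 62 and no count of 0. Counting error alone at 22 reads is 21.3%. The 1023 regions touched the ends of 1051 genes, and 67 of them lay near more than 1 gene.

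Sequences are shown for the weak gene starts with the clearest differences between the groups, so that the CpG-rich and CpG-poor promoters among them can be compared. They are the 3 higher and the 3 lower of the called regions that overlapped a listed promoter window by at least 100 bp, taken in order of p. Each runs 5′ to 3′ along the gene's strand over the 250 bases before the start (RefSeq, GRCm38.p6, the assembly of mm10), with every CpG in capitals. The first 3 were higher in palmitate and the last 3 lower. They lie at chr11:101260317-101260566 (plus strand, Wnk4), chr6:42324641-42324890 (minus strand, Fam131b), chr11:95587699-95587948 (minus strand, Ngfr), chr1:134110992-134111241 (plus strand, Chit1), chr13:96924463-96924712 (plus strand, Gcnt4) and chr1:58029719-58029968 (plus strand, Aox1).
Wnk4: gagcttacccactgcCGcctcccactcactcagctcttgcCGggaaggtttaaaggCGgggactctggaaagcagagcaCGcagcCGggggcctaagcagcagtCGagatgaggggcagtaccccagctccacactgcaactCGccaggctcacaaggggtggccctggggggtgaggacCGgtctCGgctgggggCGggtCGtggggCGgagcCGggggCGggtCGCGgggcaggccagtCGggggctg
Fam131b: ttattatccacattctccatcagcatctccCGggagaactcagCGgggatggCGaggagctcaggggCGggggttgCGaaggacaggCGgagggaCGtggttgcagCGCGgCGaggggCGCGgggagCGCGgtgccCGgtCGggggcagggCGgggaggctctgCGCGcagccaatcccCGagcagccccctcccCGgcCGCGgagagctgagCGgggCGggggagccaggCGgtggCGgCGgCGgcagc
Ngfr: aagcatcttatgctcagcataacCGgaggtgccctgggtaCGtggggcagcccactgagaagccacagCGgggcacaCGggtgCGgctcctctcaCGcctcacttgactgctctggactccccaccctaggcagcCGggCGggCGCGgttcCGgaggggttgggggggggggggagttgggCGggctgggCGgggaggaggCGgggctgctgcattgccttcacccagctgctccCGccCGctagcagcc
Chit1: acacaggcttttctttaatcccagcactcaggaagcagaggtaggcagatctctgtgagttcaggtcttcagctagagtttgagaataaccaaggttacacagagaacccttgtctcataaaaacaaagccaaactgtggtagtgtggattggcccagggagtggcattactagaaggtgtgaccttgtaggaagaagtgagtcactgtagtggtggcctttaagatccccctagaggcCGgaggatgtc
Gcnt4: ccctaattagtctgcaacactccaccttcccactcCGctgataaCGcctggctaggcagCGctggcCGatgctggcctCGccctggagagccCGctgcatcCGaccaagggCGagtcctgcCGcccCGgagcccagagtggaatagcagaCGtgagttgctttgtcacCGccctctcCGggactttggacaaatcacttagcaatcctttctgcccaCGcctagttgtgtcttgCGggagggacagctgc
Aox1: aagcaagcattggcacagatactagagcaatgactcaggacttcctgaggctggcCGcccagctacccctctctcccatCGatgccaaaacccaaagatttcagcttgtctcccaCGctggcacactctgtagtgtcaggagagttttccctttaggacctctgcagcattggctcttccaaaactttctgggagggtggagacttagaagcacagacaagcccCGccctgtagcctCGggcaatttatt

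The stretch before Fam131b held 29 CpGs and was 74.4% G or C, and that before Wnk4 held 17 CpGs at 70.0%. Before Ngfr there were 16 CpGs at 70.4%. Among the lower regions, the stretch before Chit1 held 1 CpG at 48.0% G or C and that before Aox1 held 5 at 52.8%, while that before Gcnt4 held 15 at 61.2%. None of the 6 stretches contained TATAAA on the strand shown. These 6 do not stand for all calls, which are given by CpG content below. The regions at Gcnt4 and Aox1 were not called with trended offsets (-0.70 for each, adjusted p = 0.146 and 0.21), with the DESeq2 Wald test (0.0532 and 0.0653) or without palmitate 3 (0.0624 and 0.0553).

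Weakness was uneven across the annotation. Where the RefSeq promoter table gave the strand of the gene, a region could be placed at the start or at the 3′ end. Of 6925 regions at a start, 598 were weak (8.64%), and of 404 regions at a 3′ end only, 163 were weak (40.3%). Regions near both a start and a 3′ end were weak in 34 of 425 cases (8%). The strand was unresolved for 1668 regions, of which 228 were weak (13.7%). For comparison, 46.7% of regions inside genes and 50.6% of intergenic regions fell below the same CPM. The 3′ ends therefore made up 15.9% of weak gene ends and 2.87% of stronger ones, and starts 58.5% and 75.3%.

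Promoter windows of 300 bases (250 before to 50 after a listed start) overlapped 412 weak and 6122 stronger gene ends by at least 100 bp. The CpG ratio, the observed number of CpGs over that expected from the C and G content, had a median of 0.655 at weak gene ends. It was 0.817 at stronger gene ends and 0.567 over all 21263 listed promoters. A ratio above 0.6 was found for 57.8% of weak, 85.3% of stronger and 47.6% of all promoters. Weak gene ends thus lay between open and average promoters in CpG content. Their CpG ratios are spread out as plotted by strength.

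**Figure D1:**
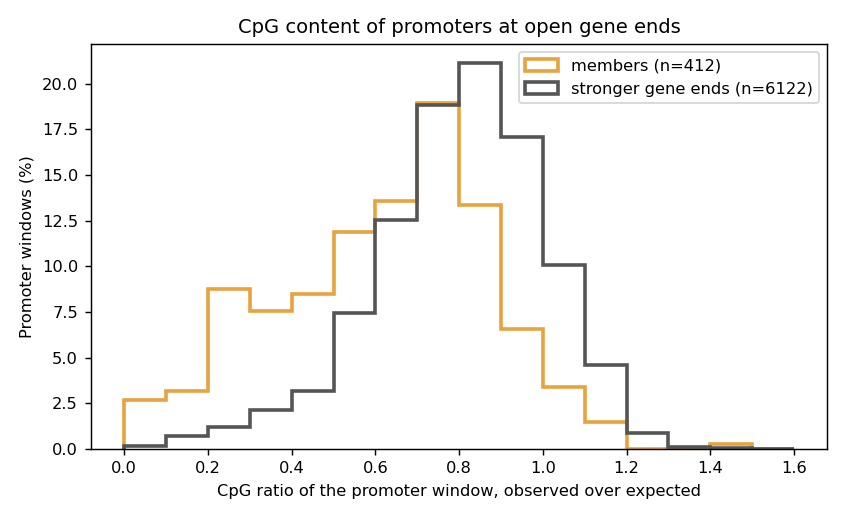
CpG ratio of the 300-base promoter window (x axis, observed over expected CpGs) for weak gene ends (412 windows) and stronger gene ends (6122 windows). The y axis gives the percentage of each set's windows per bin of the ratio. The weak set has more windows below 0.6 and a median of 0.655 against 0.817.

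Short motifs, searched on both strands, followed the same order where they hold CpGs. The GC box of Sp and KLF factors (GGGCGG) occurred in 55.8% of weak, 74.0% of stronger and 46.2% of all promoter windows, and the ETS core (CCGGAA) in 21.1%, 34.1% and 18.7%. The TATA box (TATAAA) occurred in 8.50%, 5.52% and 12.6%. The Runx core (TGTGGT) was found in 15%, 11.9% and 15%, and the AP-1 site (TGANTCA) in 6.80%, 3.74% and 6.99%. CCAAT occurred in 34.5%, 41.5% and 38.2%, and the E-box CACGTG in 9.22%, 11.7% and 7.84%. These shares describe letters in the windows and were not tested.

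More weak gene ends were called lower than higher in palmitate when libraries were scaled by TMM, edgeR's trimmed-mean library scaling. At an adjusted p below 0.05 (edgeR quasi-likelihood test, Benjamini-Hochberg over all 24605 regions), 102 were lower (9.97%; 12.7% of all regions were) and 14 were higher (1.37%; 12% of all regions were). The share called lower was thus no larger than in the whole matrix, whereas the share called higher was smaller. Their median log2 fold change, palmitate over control, was -0.21, against -0.05 for all regions, and 687 of 1023 were below 0. In 221 regions (21.6%) all 3 palmitate libraries lay below all 3 controls, against 20.8% of all regions, and in 50 (4.89%) they lay above, against 18%. DESeq2's Wald test called 29 lower (2.83%; 4.99% of all regions were) and 2 higher (0.196%; 7.85% of all regions were). Without control 1, control 3, palmitate 2 or palmitate 3 there were 66, 57, 55 and 52 lower calls. Without control 3, palmitate 1 or palmitate 2 there were 9, 6 and 5 higher calls. Of the 102 lower calls, 92 were at regions in under 2 palmitate peak lists, as described below. All 14 higher calls were at regions in at least 2.

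This direction depended on how the libraries were scaled. Across the matrix, fold changes followed region strength: the median was 0.16 for stronger gene ends and -0.46 for the 7340 regions below 12 CPM away from gene ends, whose median strength was 7.51 CPM. Trended offsets, which set the typical change at each strength to 0, turned the median of weak gene ends to 0.17. With them 5 were called lower (0.489%; 3.88% of all regions) and 43 higher (4.2%; 2.17% of all regions). Of all 8363 regions below 12 CPM, 7340 lay away from gene ends. A trended value is thus relative to regions of like strength, most of them away from gene ends. With 1 library left out, the trended lower calls ranged from 1 to 19, the latter without control 2, and the higher calls from 12 to 53. Whether the trend with strength came from palmitate or from library preparation cannot be told apart here, and trended offsets remove either. Trended values therefore stand beside the main TMM values below, and TMM is meant where no scaling is named.

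Weak gene ends had a higher median than the other regions below 12 CPM under both scalings, a difference that was not tested. Regions away from gene ends had 1667 lower calls (22.7%) and 45 higher calls (0.613%). With trended offsets they had 187 and 167, and a median of -0.02. The share of each library's reads that fell in weak gene ends was 0.946%, 0.961% and 0.930% for the controls and 0.781%, 0.763% and 0.747% for the palmitate libraries. The groups did not overlap, at 0.946% ± 0.0155 and 0.764% ± 0.0167 (SD, n = 3 each). In weak regions away from gene ends the share was 6.57% ± 0.134 in control and 4.50% ± 0.116 in palmitate, and in stronger gene ends 64.2% ± 0.436 and 68.9% ± 0.294.

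Weak gene ends were not uniform: those at 3′ ends were lower after palmitate than those at starts. The 163 regions at a 3′ end had a median log2 fold change of -0.47, with 44 called lower (27.0%) and 1 called higher. The 598 regions at a start had a median of -0.17, with 36 called lower (6.02%) and 6 higher. With trended offsets the medians were -0.08 and 0.21, the lower calls 3 and 1, and the higher calls 4 and 27. The difference between the medians was -0.31 with TMM, -0.37 without palmitate 1, and -0.19 among regions in at least 2 palmitate peak lists. No test was made of it, since the regions of one genome are not replicates. The 34 regions near both kinds of end had 2 lower and 1 higher call and a median of -0.03, and the 228 with unresolved strand had 20, 6 and -0.21. The order of 3′ ends and starts was not particular to weak regions. Among stronger gene ends, 241 at a 3′ end had a median of -0.03, with 9.13% called lower. The 6327 at a start had 0.17 and 1.04%. Their median strengths were 26.8 and 58.4 CPM.

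**Figure D2:**
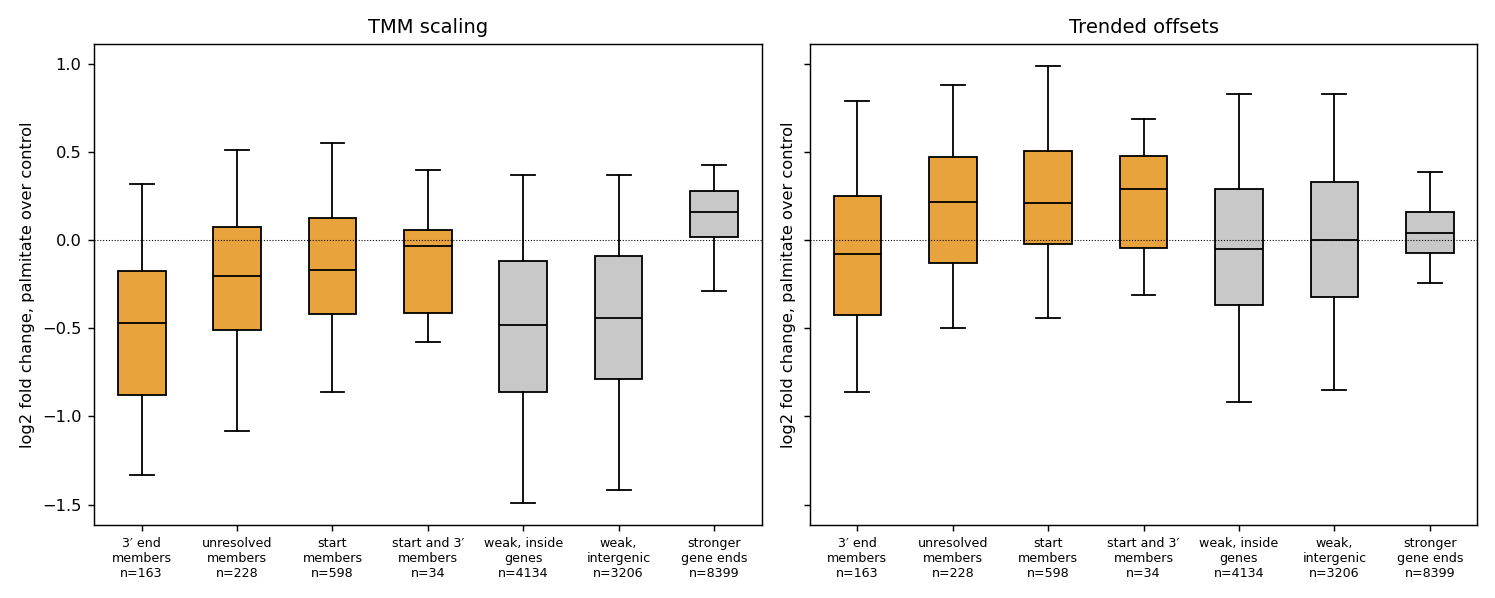
Log2 fold change, palmitate over control, by kind of region, with TMM scaling (left) and trended offsets (right). Lines mark medians, boxes the quartiles and whiskers the 5th and 95th percentiles over regions; weak gene ends are orange and comparison sets grey. The 3′ end regions have the lowest median of the 4 kinds of weak gene end under both scalings, and the start regions move from below 0 to above it.

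Starts and 3′ ends also differed at matched strength. Below 6 CPM the medians were -0.26 for starts and -0.82 for 3′ ends, from 6 to 9 CPM -0.14 and -0.48, and from 9 to 12 CPM -0.17 and -0.36. Weak regions away from gene ends had -0.66, -0.45 and -0.33 in these bins, close to the 3′ ends. The plot of medians by strength shows both scalings.

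**Figure D3:**
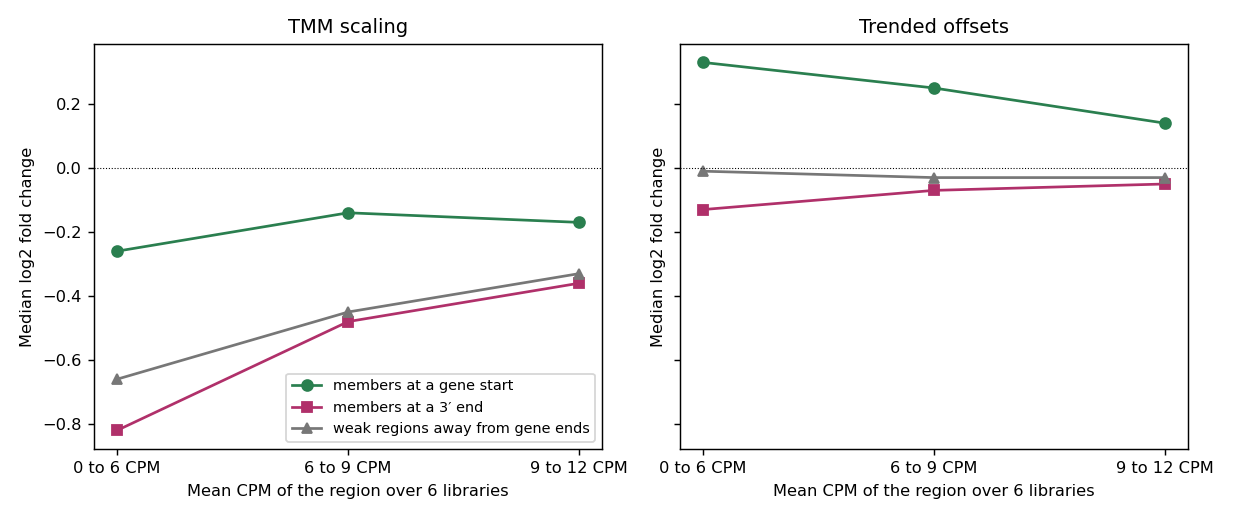
Median log2 fold change, palmitate over control, in 3 bins of mean CPM (x axis) for weak gene starts, weak 3′ ends and weak regions away from gene ends, with TMM scaling (left) and trended offsets (right). Points are medians over the regions of a bin. Starts lie above the other sets in every bin under both scalings, for example at -0.26 against -0.82 and -0.66 below 6 CPM with TMM.

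Starts were also described by position and CpG content, without a test. The 401 weak regions that held a listed start had 15 lower and 4 higher calls and a median of -0.15 (0.21 with trended offsets), at a median of 9.15 CPM. The 191 whose listed start was up to 1000 bp away had 21 and 3, and -0.20 (0.19), at 7.90 CPM. Grouped by CpG ratio, the medians were -0.22 up to 0.4 (92 regions), -0.15 from 0.4 to 0.6 (82), -0.11 from 0.6 to 0.8 (136) and -0.03 above 0.8 (102). With trended offsets they were 0.13, 0.24, 0.26 and 0.28, and the median CPM of the 4 groups was 8.71, 8.39, 8.85 and 9.58. Stronger gene ends ran the same way with TMM, from -0.04 through 0.09 and 0.17 to 0.21. With trended offsets their medians spanned less, at -0.03, 0.01, 0.03 and 0.05. Their median CPM also rose at each step of the CpG ratio, to 68.7 above 0.8. The part of region strength in this order was not tested. From the lowest CpG ratio up, the 4 groups of weak gene ends had 5, 4, 4 and 4 lower calls and 0, 2, 1 and 3 higher calls. The 50 weak gene ends on the X chromosome had 0 calls with edgeR, DESeq2 or limma-voom, 3 lower and 2 higher at an unadjusted edgeR p below 0.05, and a median of -0.07.

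In 208 cases a gene with an end within 1 kb of the weak region had another end region at or above 12 CPM. The strongest such region, called the partner, lay at a start in 149 of them. Where several genes were near, the partner could lie at a gene other than the one naming the weak region. These weak regions had a median log2 fold change of -0.32, while their partners had 0.14, and 153 of 208 lay below their partner. With trended offsets the 2 medians were 0.05 and 0.04, and 104 of 208 lay below. For the 92 weak 3′ ends in this set the medians were -0.48 and 0.17, and 75 lay below. Of their 26 lower calls, 8 had a partner called higher and 1 a partner called lower. Over all stronger gene ends 28.5% were called higher and 1.55% lower, so these counts are near the general shares. With trended offsets the 92 had medians of -0.07 and 0.03, and 52 lay below. The 68 weak starts had -0.18 beside 0.06, with 42 below, and with trended offsets 0.17 beside 0.06, with 27 below. Fold changes differed with strength throughout the matrix, and each weak region here is set beside a stronger one.

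Which weak regions entered the matrix depended on the authors' peak lists. Every region of the matrix overlapped a peak in at least 2 of the 6 lists. Each weak gene end did so in at least 2 lists of the same group, control or palmitate. The control lists were longer, with 22359, 26850 and 27122 peaks against 20201, 21502 and 21011 in palmitate. Weak gene ends overlapped a listed peak in 593, 780 and 821 cases in the controls and in 490, 556 and 470 in palmitate. The groups did not overlap, and control 1, the shallowest library, was closest to the palmitate libraries. In percent of weak regions listed, control 1 had 58.0% and palmitate 2 had 54.3%.

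The calls followed the listing. The 587 weak gene ends in more control than palmitate lists had 99 lower and 0 higher calls (5 and 0 with trended offsets), and the 213 in more palmitate lists had 0 and 12 (0 and 36). Among the 538 in at least 2 palmitate lists the median was 0.02, with 10 lower and 14 higher calls, and with trended offsets 0.35, with 0 and 43. The other 485, all in at least 2 control lists, had a median of -0.44, with 92 lower and 0 higher calls. Regions in 0 control lists numbered 39 with 2 palmitate lists and 9 with 3, and those in 1 control list 78 and 25. These 4 sets had 7, 2, 1 and 1 higher calls and 0 lower calls. Among the 114 in all 6 lists the median was -0.17, with 3 and 0, and with trended offsets 0.14, with 0 and 1. A region listed in all 3 controls and in no palmitate library occurred 51 times (28 called lower, median -0.80; 3 and -0.41 with trended offsets), for example at Nfe2l3, Appl1, Saysd1 and Slc35b2. The opposite occurred 9 times (2 called higher, median 0.72; 5 and 1.14 with trended offsets), for example at Pawr, Lbx1, Slc20a1 and Dpp7. Lists and counts come from the same reads, so neither supports the other. The palmitate lists were shorter, and whether weak regions open only in palmitate had fewer chances to enter the matrix was not tested. Nor was the part of the listing in the balance of calls.

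**Figure D4:**
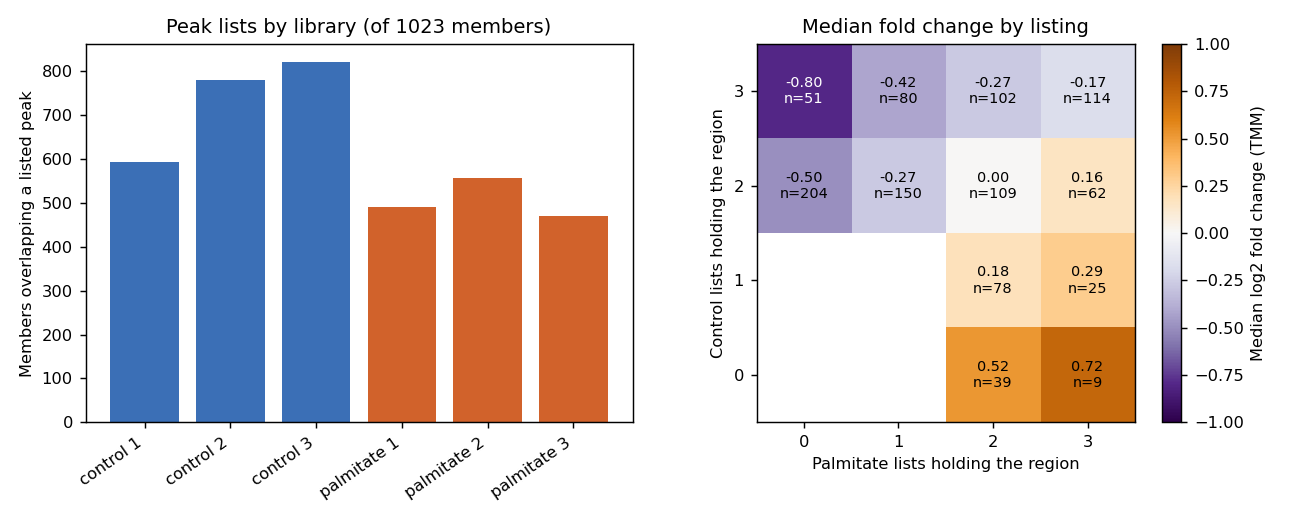
Left: number of the 1023 weak gene ends that overlap a listed peak, by library (blue control, orange palmitate). Right: median log2 fold change (TMM) and number of regions n for each combination of control lists (y axis) and palmitate lists (x axis). Medians run from -0.80 for regions in 3 control and 0 palmitate lists to 0.72 for the opposite.

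The region with the smallest p lay between Nfe2l3, which encodes a CNC-bZIP transcription factor, and Hnrnpa2b1, which encodes an RNA-binding protein (chr6:51458960-51459974), within 1 kb of the 3′ end of each. In the order of the replicate numbers, it held 36, 43 and 44 reads in control and 10, 13 and 11 in palmitate. The 6 values were far apart by group, at 14.9 ± 0.681 and 4.19 ± 0.24 normalised CPM (SD, n = 3). Its log2 fold change was -1.82 ± 0.28 (SE, adjusted p = 2.28e-05), and -1.44 with trended offsets (adjusted p = 0.00193). The strongest end region there, the Hnrnpa2b1 promoter, held 485, 597 and 633 reads in control and 693, 864 and 679 in palmitate, and was called higher at 0.41 (adjusted p = 3.45e-05; 0.10 with trended offsets).

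The second was the 3′ end of Nod1, the gene of a cytosolic sensor of bacterial peptidoglycan (chr6:54922957-54923258). It held 30, 25 and 29 reads in control and 10, 4 and 7 in palmitate, with no overlap. A log2 fold change of -1.96 ± 0.37 was fitted (adjusted p = 0.000221; -1.40 and 0.0204 with trended offsets). At the Nod1 start, the stronger region held 48, 71 and 65 reads against 67, 73 and 86, a log2 fold change of 0.33 that was not called (adjusted p = 0.155).

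Near an end of Appl1, which encodes an endosomal adaptor, the region at chr14:26919337-26919616 held 31, 31 and 35 reads in control and 11 in each palmitate library. All controls were above all palmitate values. This gave a log2 fold change of -1.52 ± 0.30 (adjusted p = 0.000417), and -1.10 with trended offsets (adjusted p = 0.0246). The strand of Appl1 was unresolved. Its other end region was called higher at 0.31 (adjusted p = 0.00278).

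Slc35b2, the gene of a Golgi transporter for the sulphate donor PAPS, had a weak 3′ end region (chr17:45567064-45567435) that also lay within 1 kb of an end of the chaperone gene Hsp90ab1. It held 35, 36 and 34 reads in control and 17, 13 and 12 in palmitate. The groups did not overlap, and the log2 fold change was -1.29 ± 0.29 (adjusted p = 0.00131; -0.92 and 0.0483 with trended offsets).

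Chit1, which encodes a chitinase, was the weak gene start with the smallest p among those called lower. The region at chr1:134111062-134111415 covered the CpG-poor promoter printed above and held 30, 27 and 52 reads in control and 16, 13 and 13 in palmitate. Control 3 was the highest, and the groups did not overlap. Its log2 fold change was -1.34 ± 0.30 (adjusted p = 0.00145; -0.97 and 0.0496 with trended offsets). Nfe2l3, Nod1, Appl1, Slc35b2 and Chit1 were the only 5 weak gene ends called lower under both scalings.

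The other 7 of the 12 lower regions with the smallest p passed with TMM and with every single library left out, and missed the threshold with trended offsets. They were the 3′ ends of Saysd1, Gzf1 (a zinc finger repressor), Gzmf and Apon (an apolipoprotein), the start of Zfp652 (a zinc finger protein), and ends of unresolved direction at Wdfy1 (an endosomal protein) and Cd69. Their log2 fold changes ranged from -2.09 at Gzmf to -1.09 at Zfp652. With trended offsets they ranged from -1.24 (Saysd1, adjusted p = 0.0558) to -0.80 (Zfp652, adjusted p = 0.0513).

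Gzmf encodes granzyme F, a serine protease of cytotoxic granules. Its weak region, chr14:56205725-56205913 and 462 bp from the 3′ end, held 16, 18 and 19 reads in control and 1, 7 and 4 in palmitate. This was the largest negative fold change of all weak gene ends, at -2.09 ± 0.45 (adjusted p = 0.00103), and with trended offsets it was -1.20 (adjusted p = 0.125). Of 12 cytotoxic effector genes with an end region, Gzmf alone had a weak one.

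Cd69 encodes an early activation antigen of T cells. A region 736 bp from an end of the gene (chr6:129266054-129266588) held 28, 28 and 32 reads in control and 10, 15 and 10 in palmitate, without overlap. On the log2 scale the difference was -1.30 ± 0.30 (adjusted p = 0.00214; -0.87 and 0.0812 with trended offsets). The stronger end region of Cd69 held 112, 117 and 136 reads in control and 109, 147 and 119 in palmitate, and did not pass the test (0.06, adjusted p = 0.753).

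Of the 14 regions called higher, Camk2n1 had the smallest p. It encodes an inhibitor of calcium/calmodulin-dependent kinase II, and the region lay 754 bp from an end of unresolved direction (chr4:138454131-138454394). It held 12, 20 and 15 reads in control and 39, 32 and 33 in palmitate, with no overlap. Its log2 fold change was 1.18 ± 0.28 (adjusted p = 0.00231), and 1.53 with trended offsets (adjusted p = 0.000792). It was called under each of the 14 alternative fits, the only higher region named here of which this was true.

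The region at the start of Wnk4, a kinase that regulates ion transport, and near the 3′ end of Vps25, a subunit of the ESCRT-II complex, lay at chr11:101260228-101260748. It held 20, 22 and 21 reads in control and 34, 40 and 41 in palmitate. All palmitate values were above all controls, and the log2 fold change was 0.89 ± 0.25 (adjusted p = 0.00906; 1.19 and 0.00366 with trended offsets). Without palmitate 3 the adjusted p was 0.053.

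Fam131b, whose CpG-rich promoter is printed above, held 15, 26 and 31 reads in control and 49, 42 and 34 in palmitate (chr6:42324342-42324900). The groups did not overlap in raw counts, with the highest control close to the lowest palmitate library. A log2 fold change of 0.83 ± 0.25 was fitted (adjusted p = 0.0144; 1.11 and 0.00661 with trended offsets). The call was lost without control 1 (adjusted p = 0.0605) or palmitate 1 (0.102).

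Ngfr encodes the low-affinity neurotrophin receptor. Its start region (chr11:95587578-95587883) held 16, 19 and 18 reads in control and 29, 49 and 20 in palmitate. Palmitate 2 was far above the others, and palmitate 3 just above the controls. The log2 fold change was 0.90 ± 0.29 (adjusted p = 0.023; 1.25 and 0.00856 with trended offsets). The call was lost without palmitate 2 (0.57, adjusted p = 0.255) or control 3 (0.0686), with total counts (0.051) and with the DESeq2 Wald test (0.0935).

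Pawr, a gene of a pro-apoptotic protein, held 15, 15 and 13 reads in control and 27, 31 and 22 in palmitate near its start (chr10:108331908-108332132), where all palmitate values were higher. Its log2 fold change was 0.91 ± 0.30 (adjusted p = 0.0237; 1.32 and 0.00628 with trended offsets), and the call was lost without control 3, palmitate 1 or palmitate 2 (adjusted p = 0.0895, 0.072 and 0.0851). At the start of Lhfpl2, a tetraspan membrane protein gene (chr13:94057601-94057812), the counts were 8, 6 and 10 against 23, 14 and 15. There too the groups did not overlap, and the log2 fold change was 1.14 ± 0.39 (adjusted p = 0.0303; 1.79 and 0.00404 with trended offsets). Leaving out control 2 (adjusted p = 0.097), control 3 (0.054), palmitate 1 (0.182) or palmitate 3 (0.0563) ended the call.

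The other higher regions with small p lay at Cecr2 (a bromodomain protein of chromatin remodelling), Itgam, Vps54 (a subunit of a vesicle tethering complex), Lbx1 (a homeobox factor), Nrep and Syt7 (a synaptotagmin). Their log2 fold changes ranged from 0.90 at Vps54 to 0.99 at Syt7, and from 1.26 to 1.48 with trended offsets. Each lost its call when at least 1 library was left out. Cecr2 lost it without palmitate 2 or 3, Vps54 without control 1, palmitate 1 or 2, Lbx1 without control 2 or 3 or palmitate 2 or 3, Nrep without control 2 or any palmitate library, and Syt7 without control 2 or palmitate 1 or 2. All 12 higher regions shown by library were still called with trended offsets, which raised weak gene ends as a set (median -0.21 to 0.17). Of the 12, only Camk2n1 and Wnk4 were also called with the DESeq2 Wald test. With total counts, Ngfr, Pawr, Vps54, Lbx1, Lhfpl2, Nrep and Syt7 lost their calls.

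**Figure D5:**
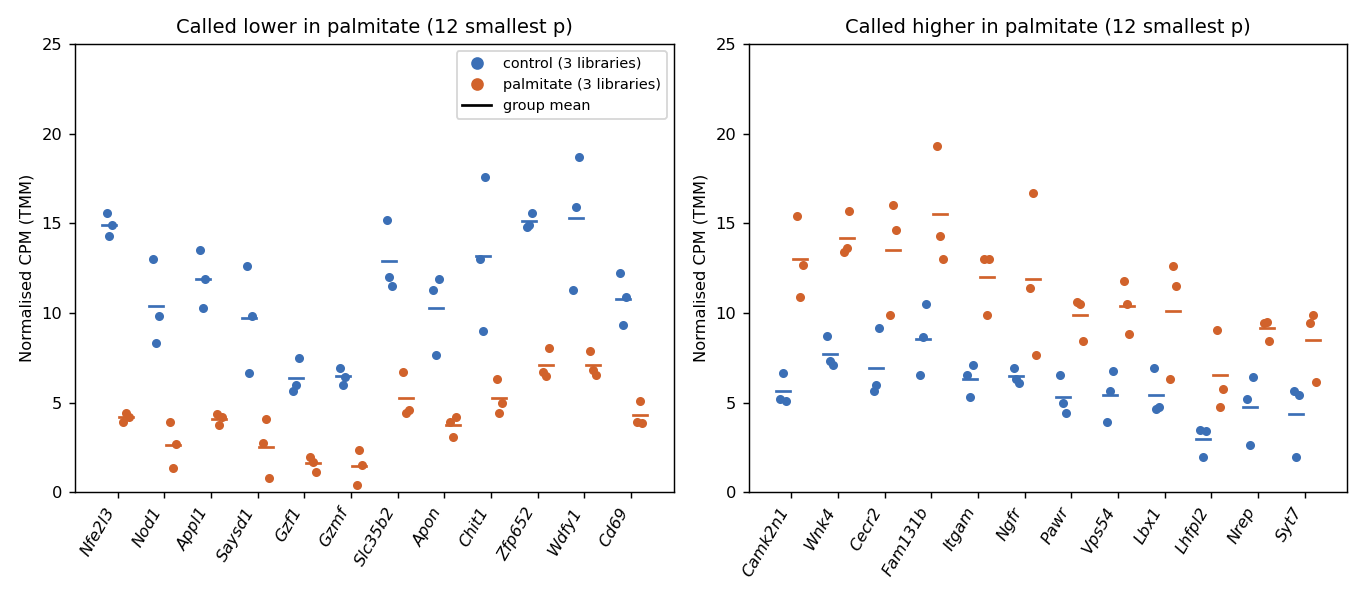
Normalised CPM (y axis, TMM) in each of 3 control (blue) and 3 palmitate (orange) libraries for the 12 lower (left) and 12 higher (right) weak gene ends with the smallest p. Points are libraries and short lines group means. Nfe2l3 has means of 14.9 and 4.19, and Camk2n1 of 5.65 and 13.0, with no overlap.

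Over all gene-end regions, 10.9% were weak. None of 17 gene-end regions of CD8 T cell identity genes was weak, and none of 14 of naive and memory genes or 26 of interferon response genes. Of 16 regions of inhibitory receptor genes 3 were weak, and edgeR, DESeq2 and limma-voom called 0 of them, as did an unadjusted edgeR p below 0.05. Ctla4 (3′ end) held 20, 30 and 30 reads in control and 19, 18 and 19 in palmitate (log2 fold change -0.47, adjusted p = 0.218). Havcr2, the gene of TIM-3, held 17, 14 and 26 against 10, 19 and 15 at its CpG-poor start (-0.35, adjusted p = 0.477), and 0.13 with trended offsets. Cd101 held 22, 62 and 21 against 34, 24 and 20, where control 2 set the group mean: the log2 fold change was -0.38, and 0.23 without that library.

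Among cytokine genes, 7 of 27 end regions were weak and 1 was called. Tnfsf13b, the gene of the B cell survival factor BAFF, held 19, 12 and 18 reads in control and 7, 8 and 2 in palmitate near its start. The groups did not overlap, and the log2 fold change was -1.49 ± 0.44 (adjusted p = 0.0126; -0.69 and 0.384 with trended offsets). The call was lost without control 1 or palmitate 3 (adjusted p = 0.07 and 0.0938) and with the DESeq2 Wald test (0.0761). Il23a (-0.60, adjusted p = 0.151), Tnfsf9, the gene of the 4-1BB ligand (-0.48, 0.204), and Tnfsf11, the gene of RANKL (-0.43, 0.265), did not pass, though Il23a did without control 2 (-0.82, 0.04).

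The chemokine receptor gene Ccr8 had a weak region near its start that did not pass, with a log2 fold change of 0.40 (adjusted p = 0.345). Interleukin and TNF receptor genes had 10 weak of 43 end regions, 2 called lower, with a median of -0.49 (-0.15 with trended offsets). These were the region near the start of Il18rap, a subunit of the IL-18 receptor, with 35, 26 and 27 reads in control and 15, 13 and 18 in palmitate (-0.91 ± 0.30, adjusted p = 0.0265), and the 3′ end of the IL-1 receptor gene Il1r1, with 39, 37 and 42 against 31, 21 and 17 (-0.74 ± 0.26, adjusted p = 0.0365). In both the groups did not overlap. With trended offsets neither passed (Il18rap -0.53, adjusted p = 0.322; Il1r1 -0.46, 0.313), nor with the DESeq2 Wald test (adjusted p = 0.127 and 0.157). Il18rap also lost the call without control 1, palmitate 1 or palmitate 2, and Il1r1 without control 1, control 3, palmitate 2 or palmitate 3.

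Genes that mark other blood lineages appeared in the weak set. Of 31 myeloid and dendritic cell genes 8 had a gene-end region, and 6 of these were weak. Itgam, which encodes CD11b and is carried by myeloid cells and also by some activated T and NK cells, was called higher at its 3′ end (chr7:128119006-128119316). It held 15, 16 and 21 reads in control and 33, 29 and 34 in palmitate, with no overlap. The log2 fold change was 0.91 ± 0.28 (adjusted p = 0.0146; 1.26 and 0.00503 with trended offsets), and the call was lost without palmitate 1 or 3 (adjusted p = 0.054 and 0.0684).

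Clec9a and Flt3 did not pass with TMM, at 0.75 (adjusted p = 0.271) and -0.37 (0.419). With trended offsets Clec9a passed at 1.69 (adjusted p = 0.0318), on 5, 7 and 6 reads against 12, 15 and 3, while Flt3 stood at 0.04. The summed normalised CPM of the 8 myeloid regions was 68.7 to 73.6 in control and 74.1 to 85.6 in palmitate. Spi1, the gene of the myeloid factor PU.1, held 14, 33 and 39 reads in control and 28, 30 and 30 in palmitate and did not pass (0.08, adjusted p = 0.858). The defining genes Lyz2, Csf1r and Cd14 had no gene-end region. For other lists, the summed CPM of 3 regions at pancreas and epithelium genes was 163 to 183 in control and 213 to 237 in palmitate, with 1 called higher. That of 2 regions at stroma and endothelium genes was 55.1 to 60.4 and 43.4 to 47.3, with 1 called lower, and none of these 5 regions was weak. At natural killer cell genes the sums were 53.0 to 59.4 and 57.8 to 63.3, and at neuronal genes 119 to 131 and 124 to 147. At erythroid, platelet and mast cell genes they were 42.8 to 47.8 and 42.2 to 43.5. In these lists the groups overlapped and no region was called. The part of other cells in the Itgam result was not tested.

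Of 6 regions at B cell genes 3 were weak. The 3′ end of Pou2af1, a coactivator of octamer factors, was called lower, with 21, 20 and 28 reads in control and 9, 12 and 14 in palmitate and no overlap (-0.94 ± 0.33, adjusted p = 0.032; -0.47 and 0.431 with trended offsets). It lost the call with the DESeq2 Wald test and without control 1, control 3, palmitate 1 or palmitate 2. Its stronger start region stood at 0.03 (adjusted p = 0.884). Bank1 (1.02, adjusted p = 0.0967) passed with trended offsets (1.87, 0.0117) or without palmitate 1 (1.33, 0.0384), and Cr2 (0.12, 0.839) did not. The summed CPM of the 6 regions was 109 to 120 in control and 104 to 121 in palmitate, and Cd79a, Cd79b, Ms4a1 and Pax5 had no gene-end region.

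Lipid metabolism genes had 8 weak of 49 end regions, and edgeR called 0 under either scaling, with 1 lower at an unadjusted p below 0.05 (median -0.38, and 0.07 with trended offsets). Angptl4, a lipoprotein lipase inhibitor whose gene responds to fatty acids in many tissues, held 28, 27 and 32 reads in control and 11, 12 and 26 in palmitate near an end of unresolved direction. In normalised CPM, palmitate 3 (9.98) lay among the controls (8.97 to 12.2) and the other 2 palmitate libraries below them. The log2 fold change was -0.79 ± 0.31 (adjusted p = 0.0606), -1.32 (0.0128) without palmitate 3, and -0.91 (0.0292) without control 2. It also passed with total counts, upper-quartile factors and limma-voom, but not with trended offsets (-0.41, adjusted p = 0.482).

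Elovl4 and Elovl2, which encode fatty acid elongases, had CpG-rich weak starts with 15, 21 and 21 reads in control and 25, 34 and 21 in palmitate, and 25, 15 and 21 against 24, 31 and 30. The Elovl2 groups overlapped. Neither difference passed, at 0.51 (adjusted p = 0.181) and 0.49 (0.217), with trended values of 0.88 (0.0521) and 0.84 (0.0766).

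Larger gene families contributed weak ends in different numbers. Their calls are to be read beside the 9.97% lower and 1.37% higher over all weak gene ends. Zinc finger genes had 42 weak of 291 end regions, of which Zfp652 and the 3′ end of Zfp629 were lower, with a median of -0.14 (0.22 with trended offsets). Zfp629 lost its call with trended offsets (-0.47, adjusted p = 0.359), with the DESeq2 Wald test and without control 1, control 2, palmitate 1 or palmitate 2. Solute carrier genes had 18 of 190, of which Slc35b2 and the mitochondrial aspartate-glutamate carrier gene Slc25a12 were lower, with a median of -0.18 (0.10 with trended offsets). Slc25a12 lost its call with trended offsets (-0.60, adjusted p = 0.175), with the DESeq2 Wald test (0.0761) and without palmitate 2. The phosphate transporter gene Slc20a1 (10 reads in each control; 22, 18 and 16 in palmitate) just missed at 0.92 (adjusted p = 0.0508) and passed with trended offsets (1.48, 0.00844).

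Cytosolic ribosomal protein genes had 1 weak of 85 end regions, and ubiquitin ligase and TRIM genes 14 of 242. Cadherins and protocadherins had 8 of 14, serine proteases, cathepsins and serpins 15 of 32, and neurotransmitter receptors 5 of 11. The share of weak ends was thus lowest in the ribosomal genes, which every cell uses. Of these 5 families only the proteases held calls, both lower (Gzmf and Prss40, with neither passing with trended offsets). Prss40 also lost its call with the DESeq2 Wald test and without control 1, control 2, palmitate 2 or palmitate 3.

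Histone genes had 5 weak of 33 end regions with 2 lower, among them the oocyte linker histone gene H1f8 (-1.31 ± 0.37, adjusted p = 0.00915). H1f8 did not pass with trended offsets (adjusted p = 0.246) and also lost its call with the DESeq2 Wald test and without palmitate 2 or palmitate 3. Small GTPase genes and their regulators had 8 of 141, with 1 call each way. Dock5, a Rac activator gene, was the higher one (0.85 ± 0.32, adjusted p = 0.0444), and missed the threshold when any library but control 2 or palmitate 3 was left out. It also missed it with total counts, upper-quartile factors, the DESeq2 Wald test, limma-voom and the replicate block.

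The limit of 12 CPM cut through a continuous range. Just inside it lay Mtln, Spata7 (11.99 CPM) and Ccdc22 (11.98), with log2 fold changes of -0.58, -0.40 and 0.03. Just outside lay gene-end regions of Tefm (12.01), Cacng2 (12.02) and Fxyd4 (12.02), with -0.51, -0.44 and -0.29. The 3 weakest were Hbq1b (2.73 CPM), Ugt1a7c (2.80) and Selenbp1 (2.81), each listed in 2 control and 0 palmitate lists.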

How the data were processed

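The authors deposited a matrix of raw whole-number counts for 24605 regions in 6 ATAC-seq libraries, and 1 peak list per library with a score from their peak calling, per the file headers. The deposited scores served only to mark peaks above the median of their list. The submitters' processing notes list mm10, Bowtie2 2.5.1, Trim Galore 0.6.10, MACS2 2.2.8, Picard 2.23.8 and edgeR 3.40.2. How reads were shifted for Tn5 and how regions were made is not given in the sources used here.

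Regions were placed by the ends of 21887 protein-coding genes of RefSeq (GRCm38.p6). Strand came from the RefSeq promoter table, which left 4395 genes unresolved. A region was placed by those of its genes with a strand, and carries the name of the gene with the nearest end.

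All regions were fitted with the edgeR 4.0.16 quasi-likelihood F-test (R 4.3.3, two-sided), TMM factors (0.952 to 1.05), no covariate and no count filter, so that all 1023 weak gene ends had a value (1009 pass filterByExpr). The adjusted p is Benjamini-Hochberg over all 24605 regions, and the SE is the absolute log2 fold change over the square root of F. Normalised CPM uses TMM library sizes. Trended offsets are a loess curve (span 0.3, 0.5 reads added) of log count on mean abundance, fitted per library. The 14 alternative fits were trended offsets, total counts, DESeq2 size factors, upper-quartile factors, filterByExpr, limma-voom (limma 3.58.1), the DESeq2 1.42.0 Wald test, the replicate number as a block, and fits leaving out each of the 6 libraries. Other limits on CPM, distance and peak lists were also tried. Tested on simulated data of this depth (24605 regions), the fit found 29 of 50 weak gene ends changed 2-fold and 1 of 50 changed 1.5-fold, with 1 false call. The simulation left 24405 regions unchanged and used a common dispersion, whereas the real fit called 12.7% of regions lower and 12.0% higher. The adjusted p is harder to pass when few regions change, so these rates do not carry over to the real fit.

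Named regions were the 12 lower and 12 higher with the smallest p, up to 8 each way with trended offsets, the called and up to 3 uncalled per list (16 gene lists, 22 families with up to 3 examples), the 3 weakest, the 3 on each side of 12 CPM, and those listed in 1 group only. Gcnt4 and Aox1 are named for their sequences. Some items the rule would name are not reported here. The regions and lists were chosen with earlier results of these data known.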

Additional observations from a re-analysis of the deposited data

How the results depend on the processing

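For the 1023 weak gene ends, the median log2 fold change was -0.21 and changed sign with trended offsets (0.17; also 0.17 with the replicate block added, and 0.18 without control 2, 0.16 without control 3, 0.19 without palmitate 1 and 0.17 without any other library) and among regions in at least 2 palmitate lists (0.02). It was -0.18 with DESeq2 size factors or the DESeq2 Wald test, -0.27 with upper-quartile factors, -0.33 with total counts, and -0.18 to -0.23 without 1 library. It was -0.29 below 8 CPM, -0.15 below 16 CPM, -0.18 within 500 bp, -0.25 within 2.5 kb and -0.17 in all 6 lists. The median of start regions turned from -0.17 to 0.21 with trended offsets (0.21 with the block; 0.20 without control 1 or 3, 0.19 without palmitate 2, 0.23 without any other library).

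The 102 lower calls became 5 with trended offsets (3 with the block; 1 to 19 with a library left out), 29 with the DESeq2 Wald test, and 52 to 108 without 1 library. There were 56 below 8 CPM, 60 within 500 bp, 185 within 2.5 kb, 3 in all 6 lists and 10 in at least 2 palmitate lists. The 14 higher calls became 43 with trended offsets (35 with the block; 26 without control 1 or palmitate 1, 53 without control 2, 12 to 53 over all 6), 5 with total counts, 2 with the DESeq2 Wald test, 24 at a false discovery rate of 0.1, 7 below 8 CPM, 0 in all 6 lists, and 5 to 16 without 1 library. The block alone gave 90 lower and 12 higher calls. Same-numbered control and palmitate libraries had deviations correlated at -0.00193, -0.102 and -0.0293, which gave no sign of pairing. With 3 libraries per group such values cannot exclude it, and the labels do not state it. The block is therefore not read as a paired analysis. DESeq2 called 4.99% of all regions lower and 7.85% higher.

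The 3′ end median minus the start median was negative in every alternative run. It was -0.31, lay between -0.27 and -0.37 without 1 library, and was -0.35 with trended offsets without palmitate 1 and -0.19 in at least 2 palmitate lists. The read share of weak gene ends, palmitate minus control, was -0.182 percentage points. It was -0.0706 below 8 CPM, -0.283 below 16 CPM, -0.129 within 500 bp and -0.286 within 2.5 kb, limits that change how many regions are summed. The mean number of listed weak gene ends differed by -226 per library, by -356.3 within 2.5 kb and by -48.67 for peaks above the median score of their list.

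Among named regions, Havcr2 (0.13) and Flt3 (0.04) changed sign with trended offsets, Cd101 without control 2 (0.23; -0.67 to 0.23 without 1 library), and Cr2 with limma-voom (-0.04) and without palmitate 1 or 2 (-0.21 to 0.48 without 1 library). None of these was called. With trended offsets 17 of the named regions lost their call and 4 gained one. Weak gene ends had a median of 22 reads per library, and the simulation found 1 of 50 changed 1.5-fold. It left nearly all regions unchanged, so that rate does not carry over to the real fit. The causes of these changes were not tested beyond what each setting removes.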
